A study of Homo sapiens with 8 samples.

Results

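A set of 39 enzymes, transporters and reductase subunits that make, recycle or degrade nucleotides, or carry the folate used in that work, were followed by messenger RNA level in 2 myeloma cell lines. The 39 genes were taken by symbol from the 25906 genes of the deposited table, and all 39 were found. Of these, 38 reached 1 FPKM (fragments per kilobase of transcript, scaled to the library's fragments) in at least 2 libraries and entered the tests with 12583 genes in all. SLC29A2 (Entrez 3177), an equilibrative nucleoside transporter, stayed at or below 0.301 FPKM in every library and was not tested. The tested genes comprised 12 of purine synthesis, 5 of pyrimidine synthesis, 9 of deoxynucleotide supply, 3 of folate metabolism, 6 of salvage and transport and 3 of nucleotide breakdown.

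A purine base is assembled step by step on a ribose phosphate, with one-carbon units supplied by folate, and ends in inosine monophosphate, from which adenine and guanine nucleotides branch. A pyrimidine ring is built first and joined to ribose phosphate afterwards. Ribonucleotide reductase turns ribonucleotides into deoxynucleotides, and thymidylate synthase adds the methyl group that distinguishes thymine from uracil. Dividing cells raise these activities to copy DNA, and several antimetabolite drugs act on them.

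The samples were MM.1S and NCI-H929, both long-established human lines grown from plasma cell myeloma, given lentivirus that carried either a CTBP2 overexpression vector or an empty vector, and harvested 72 hours later. CTBP2 is a corepressor that DNA-bound repressors recruit. Each combination of line and vector had 2 libraries, so the groups were MM.1S CTBP2, MM.1S empty vector, NCI-H929 CTBP2 and NCI-H929 empty vector. The labels name no sorting or selection of transduced cells, and no separate culture for each library, so the p-values measure the spread between these libraries, which may be technical.

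CTBP2 (Entrez 1488) was at 1621 to 5884 FPKM in the 4 CTBP2 libraries and at 0.148 to 0.213 FPKM in the 4 empty vector libraries. Line genes went against the labels of 2 CTBP2 libraries. MM.1S CTBP2 replicate 2, as labelled, held 0.0582 FPKM of CCND2 and 22.2 FPKM of FGFR3. NCI-H929 CTBP2 replicate 2, as labelled, held 60.7 FPKM of CCND2 and 0.0399 FPKM of FGFR3. The other MM.1S libraries had 46.7 to 115.4 FPKM of CCND2 and at most 0.0570 FPKM of FGFR3, and the other NCI-H929 libraries had at most 0.0633 FPKM of CCND2 and 13.6 to 21.7 FPKM of FGFR3. Line was therefore read from these genes, with above 10 FPKM of CCND2 taken as MM.1S-expressing and above 10 FPKM of FGFR3 as NCI-H929-expressing, while vector was taken from the labels. The 2 libraries whose line genes go against their labels are called displaced. The MM.1S-expressing CTBP2 libraries are those labelled MM.1S CTBP2 replicate 1 and NCI-H929 CTBP2 replicate 2, and the NCI-H929-expressing ones are those labelled NCI-H929 CTBP2 replicate 1 and MM.1S CTBP2 replicate 2. Paired values follow that order, and empty vector values follow the replicate number. Estimated depth was 16000000 to 21250000 fragments per library. The 8 listed plasma cell markers summed to 1700 to 2518 FPKM in CTBP2 libraries and 2375 to 3469 FPKM in empty vector libraries.

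Most of the listed nucleotide genes were at a lower level in CTBP2 libraries. With both lines fitted together 31 of the 38 fell, 2 rose and 5 did not pass the test (limma, adjusted p under 0.05 over all genes tested). Of all genes tested, 34.1% were called, 16.7% lower and 17.4% higher. The list was chosen with earlier results of these data known, so its counts are no independent test. Among 54 other tested genes of the same pathways, given below, 16 fell (29.6%) and 4 rose (7.41%). The median log2 fold change of the 38 genes was -0.87, against 0.035 for all genes, on the log2(FPKM + 1) scale, which understates changes of low genes. Summed over the 39 genes, the level was 1050 to 1914 FPKM in CTBP2 libraries and 2498 to 3543 FPKM in empty vector libraries. These groups did not overlap, but nor did the totals of all FPKM given below. The sum also leans on the highest genes, such as NME2, at 560.4 FPKM on average over all libraries. In bulk RNA, fewer cells of a type and less RNA per cell cannot be told apart.

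Single genes separated the vectors less completely than the sum. All 4 CTBP2 libraries lay below all 4 empty vector libraries for 16 of the 38 genes, as for 7.45% of genes tested, and above them for 2, AMPD3 and NT5E, as for 7.21% of genes tested. Within each line read from expression, the CTBP2 pair lay below the empty vector pair in both lines for 32 of the 38, against 19.9% of genes tested, and above it for AMPD3, NT5E and RRM2B, against 21.4% of genes tested. Without the 2 libraries whose line genes were displaced, 30 fell and 2 rose, against 13% and 11.5% of all genes (24.5% in all), and the lost call was TK1 (limma adjusted p = 0.126). With line labels as given, 8 fell (PRPS2, PPAT, CAD, UMPS, CTPS1, DCTPP1, MTHFD1 and HPRT1) and AMPD3 rose, against 1.81% and 1.53% of all genes (3.34% in all). Over fits that left out 1 library each, 25 to 31 fell, where 1159 to 2208 of all 12583 genes did. Of the 33 calls, 24 held in all 8, a share not given for all genes.

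The total of all FPKM was 459733 to 544210 in CTBP2 libraries and 547097 to 659837 in empty vector libraries. Scaling libraries to equal totals, with immunoglobulin genes and CTBP2 left out, moved the median of all genes to 0.27, and 6.9% of genes were then called lower and 29.9% higher, or 36.8% in all. The nucleotide genes had a median of -0.58 on that scale, 0.85 below all genes, against 0.90 below them on the deposited scale. Of the 38, 25 fell and 3 rose on the equal-total scale: the calls of ADSL, ATIC, GMPS, ADK, TK1 and AMPD2 were lost and NT5E was called. With quantile normalization the calls of ADSL, RRM2B, TK1 and AMPD2 were lost, and with no filter on low values those of ADSL, RRM2B, NME1, TK1 and SLC29A1.

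**Figure D1:**
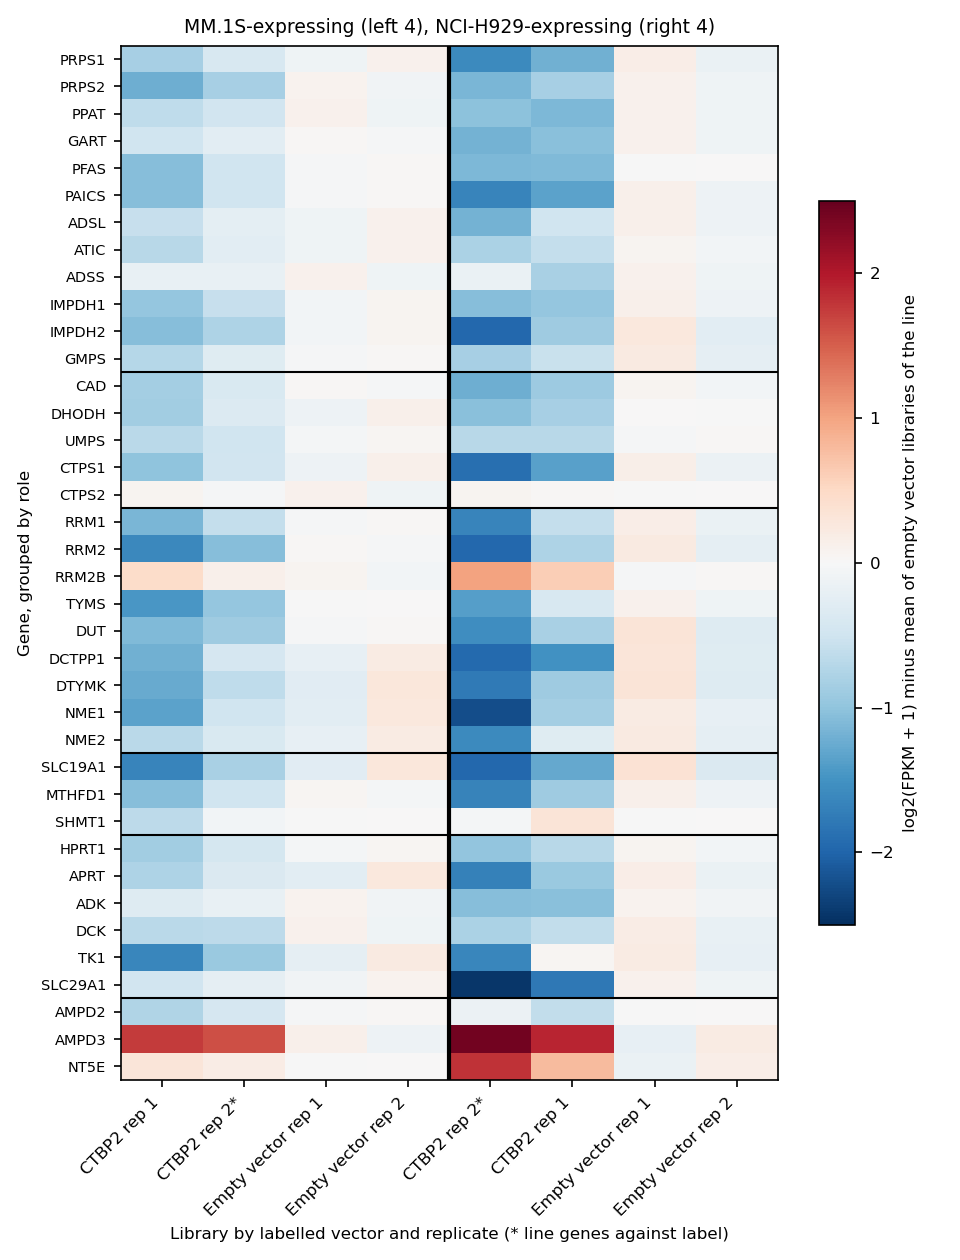
Level of the 38 tested genes (rows, grouped by role with black rules) in the 8 libraries (columns), as log2(FPKM + 1) minus the mean of the empty vector libraries of the line read from expression, with MM.1S-expressing libraries left of the thick rule, NCI-H929-expressing ones right of it, and asterisks on the 2 libraries whose line genes go against their label. Blue, lower than empty vector, fills the CTBP2 columns of most rows in both lines, while AMPD3, RRM2B and NT5E are red there.

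Short letter patterns were looked up near the start sites of these genes, since both belong to factors known for driving growth genes. They were CACGTG, the core E-box bound by MYC with its partner MAX, which reads the same on both strands, and 4 versions of an E2F-type site (TTTGGCGC, TTTGCCGC, TTTCGCGC and TTTCCCGC) on either strand. Promoter windows ran from 250 bases before to 50 bases after each start site in RefSeq, build GRCh38.p14, and 35 of the 39 genes had one. CACGTG occurred in 11 of the 35 (31.4%), against 8.77% of all genes with a window, 13% of genes tested and 16.5% of genes tested that fell with CTBP2. The E2F-type pattern occurred in 6 of the 35 (17.1%), against 3.99% of all genes, 6.78% of genes tested and 10.1% of those that fell. Of the 29 members with a window that fell, 37.9% had CACGTG and 20.7% the E2F-type pattern. The 6 members with a window that did not fall had neither. Among genes tested that rose, 12.4% and 5.13% had them, so 6 genes are too few to show a difference. A gene counted if any of its windows held the pattern, PPAT and PAICS share 1 CACGTG, SLC19A1 and DCK hold both patterns, and a match is a description of letters, not a binding site.

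Purine synthesis fell almost as a whole, with 11 of 12 genes lower, none higher and a median log2 fold change of -0.85. PRPS2 (Entrez 5634), which makes the activated ribose phosphate on which the ring is built, was at 9.12 and 12.2 FPKM in MM.1S-expressing CTBP2 libraries, against 23.9 and 21.2 FPKM with empty vector. In NCI-H929-expressing libraries it was at 10.1 and 7.90 FPKM with CTBP2 and at 20.2 and 17.3 FPKM with empty vector. The groups did not overlap, and the fall passed the test (log2 fold change -1.01, SE 0.13, limma adjusted p = 0.00277). Its paralog PRPS1 (Entrez 5631) was at 28.1 and 38.4 FPKM with CTBP2 against 47.5 and 54.8 FPKM with empty vector in MM.1S-expressing libraries. It was at 50.7 and 38.5 FPKM with CTBP2 against 132.3 and 105.7 FPKM with empty vector in NCI-H929-expressing ones, so the lowest empty vector library lay below the highest CTBP2 library (-1.01, SE 0.20, limma adjusted p = 0.00745).

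PPAT (Entrez 5471), which commits ribose phosphate to purines, and PAICS (Entrez 10606), a bifunctional enzyme of the middle steps, are read in opposite directions from start sites that neighbour each other on chromosome 4. PAICS was at 49.6 and 73.7 FPKM with CTBP2 against 102.0 and 107.4 FPKM with empty vector in MM.1S-expressing libraries, and at 38.6 and 30.9 FPKM with CTBP2 against 109.1 and 90.9 FPKM with empty vector in NCI-H929-expressing libraries. PPAT was at 11 and 12.3 FPKM with CTBP2 against 19.0 and 16.2 FPKM with empty vector in MM.1S-expressing libraries, and at 8.80 and 9.47 FPKM with CTBP2 against 21.8 and 18.8 FPKM with empty vector in NCI-H929-expressing libraries. Both genes fell without overlap of the groups, PAICS by 1.14 (SE 0.19, limma adjusted p = 0.0051) and PPAT by 0.81 (SE 0.14, limma adjusted p = 0.00512) on the log2 scale. The whole stretch between their start sites, 136 bases at chr4:56435616-56435751 on the plus strand, is shown because it serves both genes, with the 24 bases at chr4:56435778-56435801 that hold the CACGTG (capitals) 40 bases past the PAICS start site.
PPAT to PAICS: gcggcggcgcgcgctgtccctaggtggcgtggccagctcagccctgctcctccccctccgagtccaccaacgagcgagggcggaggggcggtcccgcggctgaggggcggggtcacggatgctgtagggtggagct
PAICS past its start site: agctgtatttgctgCACGTGgaaa

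The trifunctional enzyme GART (Entrez 2618) and PFAS (Entrez 5198), the enzyme that turns formylglycinamide ribotide into its amidine, act between those steps. PFAS was at 8.22 and 12.7 FPKM with CTBP2 against 18.0 and 18.8 FPKM with empty vector in MM.1S-expressing libraries, and at 6.17 and 6.02 FPKM with CTBP2 against 14.3 and 14.4 FPKM with empty vector in NCI-H929-expressing libraries. All 4 CTBP2 values lay below all 4 empty vector values (-0.95, SE 0.14, limma adjusted p = 0.00404). GART fell by 0.75 on the log2 scale (SE 0.16, limma adjusted p = 0.0102), with 16.2 to 51.7 FPKM in CTBP2 libraries and 34.9 to 63.8 FPKM in empty vector libraries, which overlap. ATIC (Entrez 471), a folate-using enzyme that closes the ring, and ADSL (Entrez 158), which acts both on the way to inosine monophosphate and on the way to AMP, fell by 0.59 (SE 0.14, limma adjusted p = 0.0125) and 0.63 (SE 0.18, limma adjusted p = 0.028). With equal totals neither passed, with -0.29 for ATIC (limma adjusted p = 0.0799) and -0.33 for ADSL (limma adjusted p = 0.0886). ATIC was at 48.2 to 65.3 FPKM in CTBP2 libraries and 73.3 to 87.8 FPKM in empty vector libraries. ADSL was at 31.4 to 62.0 FPKM in CTBP2 libraries and 66.5 to 79.5 FPKM in empty vector libraries, so neither overlapped. The ADSL call was lost in 4 fits that left out 1 library (either NCI-H929 empty vector library, replicate 2 of MM.1S empty vector, or replicate 1 of MM.1S CTBP2), with limma adjusted p of 0.0191 to 0.0841 over the 8 fits.

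All 3 listed genes of the guanine branch fell. IMPDH2 (Entrez 3615) and IMPDH1 (Entrez 3614) catalyse the rate-limiting step to guanine nucleotides. IMPDH2 was at 60.5 and 74.1 FPKM with CTBP2 against 121.7 and 133.9 FPKM with empty vector in MM.1S-expressing libraries, and at 208.3 and 97.5 FPKM with CTBP2 against 460.8 and 319.8 FPKM with empty vector in NCI-H929-expressing libraries. IMPDH1 was at 22.1 and 29.4 FPKM with CTBP2 against 42.2 and 46.6 FPKM with empty vector in MM.1S-expressing libraries, and at 19.4 and 18.0 FPKM with CTBP2 against 42.5 and 35.2 FPKM with empty vector in NCI-H929-expressing libraries. Only for IMPDH1 did the groups of 4 not overlap. The log2 fold change was -1.17 for IMPDH2 (SE 0.25, limma adjusted p = 0.00925) and -0.89 for IMPDH1 (SE 0.13, limma adjusted p = 0.00379). GMPS (Entrez 8833), which makes GMP, was at 13.6 to 43.7 FPKM in CTBP2 libraries and 21.1 to 55.6 FPKM in empty vector libraries, and fell by 0.60 (SE 0.15, limma adjusted p = 0.0154), a call lost without MM.1S CTBP2 replicate 1 (limma adjusted p 0.0104 to 0.0544 over the 8 fits that left out 1 library) and with equal totals (-0.31, limma adjusted p = 0.0997). ADSS (Entrez 159), the first enzyme of the adenine branch, was at 14.9 to 23.8 FPKM in CTBP2 libraries and 20.6 to 29.2 FPKM in empty vector libraries (-0.34, SE 0.16, limma adjusted p = 0.117), and was lower with CTBP2 within each line.

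The 100 bases before the start site are shown for PRPS2 and ATIC, the purine genes with a pattern (capitals) in the 50 bases before it, at chrX:12791312-12791411 and chr2:215311959-215312058, both on the plus strand.
PRPS2: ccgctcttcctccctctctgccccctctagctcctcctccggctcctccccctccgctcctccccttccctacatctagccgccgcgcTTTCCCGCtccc
ATIC: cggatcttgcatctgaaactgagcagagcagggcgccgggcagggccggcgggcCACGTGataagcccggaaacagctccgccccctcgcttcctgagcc

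Pyrimidine synthesis fell in 4 of 5 genes, and the exception was a gene that NCI-H929-expressing libraries barely contained. CAD (Entrez 790), the trifunctional enzyme that starts the ring, was at 8.37 and 12 FPKM with CTBP2 against 16.1 and 15.5 FPKM with empty vector in MM.1S-expressing libraries, and at 12.4 and 9.70 FPKM with CTBP2 against 25.3 and 22.8 FPKM with empty vector in NCI-H929-expressing libraries. DHODH (Entrez 1723), the mitochondrial step of the pathway, was at 4.0 and 6.20 FPKM with CTBP2 against 7.36 and 9.07 FPKM with empty vector, and at 3.44 and 2.82 FPKM with CTBP2 against 6.94 and 6.92 FPKM with empty vector, in the same order of lines. UMPS (Entrez 7372), which finishes UMP, was at 6.12 and 7.04 FPKM with CTBP2 against 9.91 and 10.8 FPKM with empty vector, and at 5.91 and 5.84 FPKM with CTBP2 against 9.92 and 10.3 FPKM with empty vector. For these 3 genes no CTBP2 library reached an empty vector library, and the log2 fold changes were -0.84 (SE 0.15) for CAD, -0.78 (SE 0.15) for DHODH and -0.64 (SE 0.10) for UMPS, with limma adjusted p of 0.00623, 0.00724 and 0.00453 in that order.

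CTP synthase, which makes CTP from UTP, is encoded by a pair of paralogs. CTPS1 (Entrez 1503), the form known for proliferating lymphocytes, was at 19.2 and 28.1 FPKM with CTBP2 against 36.1 and 43.6 FPKM with empty vector in MM.1S-expressing libraries. In NCI-H929-expressing libraries CTPS1 was at 19.0 and 13.0 FPKM with CTBP2 and at 55.9 and 45.6 FPKM with empty vector, so the groups of 4 did not overlap (-1.18, SE 0.22, limma adjusted p = 0.00652). CTPS2 (Entrez 56474) was at 1.92 and 1.73 FPKM with CTBP2 against 1.99 and 1.61 FPKM with empty vector in MM.1S-expressing libraries, and at 0.0271 and 0.0610 FPKM with CTBP2 against 0 and 0.0145 FPKM with empty vector in NCI-H929-expressing libraries. The vectors overlapped in MM.1S-expressing libraries, and the other line had next to no CTPS2 with either vector (0.03, SE 0.11, limma adjusted p = 0.833).

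Deoxynucleotide supply fell in 7 of 9 genes, with a median log2 fold change of -1.09, and RRM2B rose. RRM2 (Entrez 6241), the small reductase subunit made in S phase, was at 61.2 and 90.0 FPKM with CTBP2 against 194.1 and 185.7 FPKM with empty vector in MM.1S-expressing libraries, and at 55.9 and 23.8 FPKM with CTBP2 against 112.4 and 81.8 FPKM with empty vector in NCI-H929-expressing libraries. Within each line the CTBP2 values were lower (-1.35, SE 0.25, limma adjusted p = 0.00647). RRM1 (Entrez 6240), the large subunit, fell by 1.0 (SE 0.23, limma adjusted p = 0.0122), with 11.8 to 46.9 FPKM in CTBP2 libraries and 35.1 to 72.7 FPKM in empty vector libraries. RRM2B (Entrez 50484), the p53-inducible small subunit that supplies resting cells, was at 2.62 and 1.90 FPKM with CTBP2 against 1.77 and 1.52 FPKM with empty vector in MM.1S-expressing libraries, and at 8.57 and 11.6 FPKM with CTBP2 against 5.12 and 5.45 FPKM with empty vector in NCI-H929-expressing libraries. RRM2B was higher with CTBP2 within each line (0.55, SE 0.15, limma adjusted p = 0.0247). Its call was lost on leaving out replicate 1 of MM.1S CTBP2, replicate 2 of MM.1S empty vector or either NCI-H929 empty vector library (limma adjusted p 0.0131 to 0.0764 over the 8 fits that left out 1 library).

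Thymidylate supply fell at each listed step. TYMS (Entrez 7298), thymidylate synthase, was at 31.3 and 44.2 FPKM with CTBP2 against 86.7 and 88.2 FPKM with empty vector in MM.1S-expressing libraries, and at 27.5 and 13.4 FPKM with CTBP2 against 39.3 and 34.0 FPKM with empty vector in NCI-H929-expressing libraries. DUT (Entrez 1854), the dUTPase that keeps uracil out of DNA and provides dUMP, was at 30.7 and 36.1 FPKM with CTBP2 against 66.2 and 68.8 FPKM with empty vector, and at 26.0 and 15.1 FPKM with CTBP2 against 57.5 and 36.9 FPKM with empty vector, in the same order of lines. DUT groups did not overlap, while TYMS in NCI-H929-expressing empty vector libraries lay below 1 MM.1S-expressing CTBP2 library. The log2 fold changes were -1.05 for TYMS (SE 0.21, limma adjusted p = 0.00834), -1.09 for DUT (SE 0.19, limma adjusted p = 0.00577) and -1.13 for DTYMK (Entrez 1841, thymidylate kinase; SE 0.25, limma adjusted p = 0.0111). DTYMK was at 11.6 to 39.2 FPKM in CTBP2 libraries and 33.0 to 74.6 FPKM in empty vector libraries. DCTPP1 (Entrez 79077), which clears dCTP and modified dCTP from the pool, was at 22.7 and 39.7 FPKM with CTBP2 against 46.3 and 62.4 FPKM with empty vector in MM.1S-expressing libraries. It was at 22.9 and 16.8 FPKM with CTBP2 against 83.4 and 54.0 FPKM with empty vector in NCI-H929-expressing libraries, without overlap (-1.27, SE 0.26, limma adjusted p = 0.00852).

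The nucleoside diphosphate kinases NME1 (Entrez 4830) and NME2 (Entrez 4831), which hand the last phosphate to nucleotides, are neighbouring genes of similar sequence. Reads could have been split between them, which was not tested, so each value is uncertain. NME1 was at 68.1 to 221.3 FPKM in CTBP2 libraries and 262.2 to 374.4 FPKM in empty vector libraries, with no overlap (-1.23, SE 0.32, limma adjusted p = 0.0191). That call was lost on leaving out replicate 1 of MM.1S CTBP2, replicate 2 of MM.1S empty vector, or replicate 1 of NCI-H929 empty vector (limma adjusted p 0.0107 to 0.0615 over the 8 fits). NME2 was at 253.9 to 621.2 FPKM in CTBP2 libraries and 520.5 to 897.5 FPKM in empty vector libraries (-0.73, SE 0.28, limma adjusted p = 0.0718). NME2 passed without NCI-H929 CTBP2 replicate 1 (log2 fold change -0.95, limma adjusted p = 0.0324).

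The 100 bases before the start site are shown for TYMS, DUT and DCTPP1, which have a pattern (capitals) in the 50 bases before it: TYMS at chr18:657553-657652 and DUT at chr15:48332097-48332196 on the plus strand, and DCTPP1 at chr16:30429801-30429900 on the minus strand. DUT has 2 E2F-type matches, TYMS has 1, and DCTPP1 has CACGTG.
TYMS: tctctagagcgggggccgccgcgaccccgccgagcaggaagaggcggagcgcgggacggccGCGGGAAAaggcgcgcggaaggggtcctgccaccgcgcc
DUT: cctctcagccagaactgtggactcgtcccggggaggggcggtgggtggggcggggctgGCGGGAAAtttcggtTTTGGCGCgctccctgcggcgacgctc
DCTPP1: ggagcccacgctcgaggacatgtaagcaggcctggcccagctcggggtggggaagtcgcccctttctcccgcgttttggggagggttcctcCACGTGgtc

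Folate genes fell in 2 of 3. SLC19A1 (Entrez 6573), the reduced folate carrier and the route by which methotrexate enters cells, was at 14.8 and 27.2 FPKM with CTBP2 against 39.7 and 59.4 FPKM with empty vector in MM.1S-expressing libraries, and at 9.94 and 5.86 FPKM with CTBP2 against 33.0 and 19.9 FPKM with empty vector in NCI-H929-expressing libraries. It had the lowest fitted log2 fold change of the 38 genes (-1.43, SE 0.26, limma adjusted p = 0.0061). MTHFD1 (Entrez 4522), the trifunctional cytosolic enzyme that interconverts one-carbon folates, was at 12.4 and 18.7 FPKM with CTBP2 against 28.0 and 25.8 FPKM with empty vector, and at 22.4 and 12.6 FPKM with CTBP2 against 46.0 and 38.6 FPKM with empty vector, in the same order of lines. The MTHFD1 groups of 4 did not overlap (-1.03, SE 0.20, limma adjusted p = 0.00794). SHMT1 (Entrez 6470), the cytosolic enzyme that takes a one-carbon unit from serine, was at 7.48 to 11.8 FPKM in CTBP2 libraries and 8.70 to 12.5 FPKM in empty vector libraries (-0.11, SE 0.17, limma adjusted p = 0.607; 0.15 with equal totals and 0.054 without MM.1S CTBP2 replicate 1). MTHFD1 has CACGTG 15 bases before its start site, shown in the 100 bases at chr14:64388253-64388352 on the plus strand.
MTHFD1: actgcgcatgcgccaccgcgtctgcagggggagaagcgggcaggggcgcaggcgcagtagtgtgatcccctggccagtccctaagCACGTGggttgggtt

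All 6 tested salvage and transport genes fell, with a median log2 fold change of -0.84. HPRT1 (Entrez 3251), which recycles hypoxanthine and guanine, was at 29 and 39.1 FPKM with CTBP2 against 51.8 and 55.6 FPKM with empty vector in MM.1S-expressing libraries, and at 34.0 and 27.8 FPKM with CTBP2 against 58.3 and 53.3 FPKM with empty vector in NCI-H929-expressing libraries. No CTBP2 value reached an empty vector value (-0.75, SE 0.13, limma adjusted p = 0.00574). DCK (Entrez 1633), which phosphorylates deoxycytidine and activates drugs such as cytarabine, was at 12.5 and 12.6 FPKM with CTBP2 against 22.3 and 18.9 FPKM with empty vector, and at 7.41 and 6.45 FPKM with CTBP2 against 13.7 and 10.4 FPKM with empty vector, in the same order of lines. DCK was lower with CTBP2 within each line (-0.69, SE 0.12, limma adjusted p = 0.00554). TK1 (Entrez 7083), the thymidine kinase of S phase, was at 18.4 to 61.0 FPKM in CTBP2 libraries and 51 to 129.7 FPKM in empty vector libraries. In NCI-H929-expressing libraries its 2 CTBP2 values, 61.0 and 18.4 FPKM, lay on either side of the lower of 68.8 and 51 FPKM with empty vector (both lines -1.04, SE 0.34, limma adjusted p = 0.0415). Its call held in only 2 of the 8 fits that left out 1 library, those without one or the other library labelled NCI-H929 CTBP2 (limma adjusted p 0.00739 to 0.118 over the 8).

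APRT (Entrez 353), which recycles adenine, was at 78.4 and 105.8 FPKM with CTBP2 against 112.2 and 163.5 FPKM with empty vector in MM.1S-expressing libraries, and at 168.0 and 99.4 FPKM with CTBP2 against 361.5 and 286.8 FPKM with empty vector in NCI-H929-expressing libraries. ADK (Entrez 132), which phosphorylates adenosine, was at 8.03 and 8.94 FPKM with CTBP2 against 11 and 9.72 FPKM with empty vector, and at 13.9 and 13.6 FPKM with CTBP2 against 31.8 and 27.8 FPKM with empty vector, in the same order of lines. Both were lower within each line, and over both lines they fell by 0.94 for APRT (SE 0.24, limma adjusted p = 0.0176) and 0.66 for ADK (SE 0.17, limma adjusted p = 0.017) on the log2 scale. APRT lost its call on leaving out any of the same 3 libraries as NME1 (limma adjusted p 0.0115 to 0.0534 over the 8 fits), and ADK without either NCI-H929 empty vector library (0.0118 to 0.0527). SLC29A1 (Entrez 2030), the equilibrative transporter ENT1 that carries nucleosides and many nucleoside drugs, was at 63.5 and 76.1 FPKM with CTBP2 against 84.2 and 94.7 FPKM with empty vector in MM.1S-expressing libraries. In NCI-H929-expressing libraries it was at 15.3 and 9.34 FPKM with CTBP2 and at 59.0 and 50.9 FPKM with empty vector, a ratio of means of 0.224 against 0.780 in the other line. Over both lines SLC29A1 fell by 1.23 (SE 0.33, limma adjusted p = 0.02), a call lost without either NCI-H929 empty vector library (limma adjusted p 0.0114 to 0.0607 over the 8 fits).

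The breakdown genes did not move as one. AMPD3 (Entrez 272), an AMP deaminase known from red cells that turns AMP to IMP, was at 14 and 12.6 FPKM with CTBP2 against 3.89 and 3.09 FPKM with empty vector in MM.1S-expressing libraries, and at 6.78 and 10.1 FPKM with CTBP2 against 0.818 and 1.39 FPKM with empty vector in NCI-H929-expressing libraries. All 4 CTBP2 values were above all 4 empty vector values, 3.81 times the empty vector mean in MM.1S-expressing and 7.62 times in NCI-H929-expressing libraries (1.91, SE 0.17, limma adjusted p = 0.00114). AMPD2 (Entrez 271), the deaminase known from liver, was at 6.21 and 8.0 FPKM with CTBP2 against 10.9 and 11.3 FPKM with empty vector, and at 23.4 and 32.6 FPKM with CTBP2 against 36.1 and 36.7 FPKM with empty vector, in the same order of lines. AMPD2 fell (-0.49, SE 0.13, limma adjusted p = 0.0233), a call lost in 4 of the 8 fits that left out 1 library, those without either replicate 1 CTBP2 library or either replicate 2 empty vector library (limma adjusted p 0.0122 to 0.077), and on the equal-total scale (-0.21, limma adjusted p = 0.361). NT5E (Entrez 4907), the CD73 ectoenzyme that makes adenosine outside the cell, was at 2.13 and 1.89 FPKM with CTBP2 against 1.51 and 1.57 FPKM with empty vector in MM.1S-expressing libraries. It was at 2.72 and 6.54 FPKM with CTBP2 against 0.920 and 1.42 FPKM with empty vector in NCI-H929-expressing libraries, so no CTBP2 value was as low as an empty vector value, but the test over both lines was not passed (0.77, SE 0.27, limma adjusted p = 0.0514). NT5E passed in 4 alternatives: without the displaced library of NCI-H929 label (0.90, limma adjusted p = 0.0403), with a pseudocount of 0.1 (1.1, 0.0438), with median-of-ratios rescaling (0.77, 0.0461) and with equal totals (0.97, 0.0307).

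**Figure D2:**
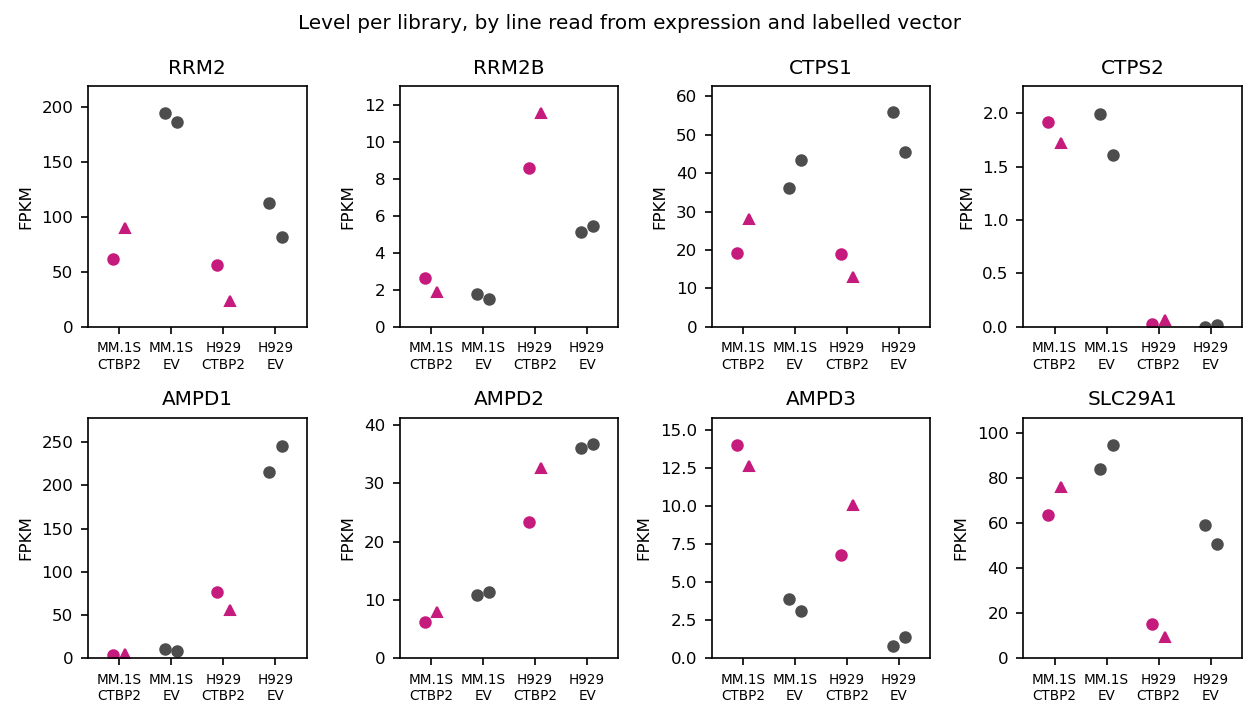
FPKM (vertical axes, from 0, a different scale in each panel) of 8 genes in each library, grouped by line read from expression (H929 is NCI-H929) and labelled vector, with CTBP2 libraries in pink, empty vector (EV) libraries in grey and triangles for the 2 libraries whose line genes go against their label. AMPD3 and RRM2B are higher with CTBP2 in both lines, RRM2, CTPS1, AMPD1, AMPD2 and SLC29A1 are lower, and CTPS2 is at most 0.0610 FPKM in the NCI-H929-expressing libraries.

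The 6 pairs of related genes were compared within libraries by the log2 ratio of their FPKM + 1 values, since members of a pair share most of their chemistry. The AMPD2 to AMPD3 ratio averaged 0.40 ± 1.43 in CTBP2 libraries and 2.80 ± 1.59 in empty vector libraries (SD, n = 4 each), a difference of -2.40. The RRM2 to RRM2B ratio averaged 3.16 ± 1.76 in CTBP2 libraries and 5.06 ± 1.31 in empty vector libraries (SD, n = 4 each), a difference of -1.90. CTPS1 to CTPS2 differed by -1.22, SLC29A1 to SLC29A2 by -1.31, IMPDH1 to IMPDH2 by 0.28 and PRPS1 to PRPS2 by -0.0037. None of the 6 passed the two-sided exact permutation test over samples, with p of 0.143 to 1 and 0.343 to 1 after Benjamini-Hochberg adjustment over the 6. That test takes no account of line. Within each line both CTBP2 ratios lay below both empty vector ratios for 4 pairs, AMPD2 to AMPD3, RRM2 to RRM2B, CTPS1 to CTPS2 and SLC29A1 to SLC29A2. The share of other gene pairs that do so was not computed. SLC29A2 stayed at or below 0.301 FPKM, and CTPS2 at or below 0.0610 FPKM in NCI-H929-expressing libraries. With 1 FPKM added, the SLC29A1 ratio, and in that line the CTPS1 ratio, mainly restate the falls of SLC29A1 and CTPS1. AMPD2 to AMPD3 was -1.06 and -0.60 with CTBP2 against 1.28 and 1.59 with empty vector in MM.1S-expressing libraries, and 1.65 and 1.60 with CTBP2 against 4.35 and 3.98 with empty vector in NCI-H929-expressing libraries. RRM2 to RRM2B was 4.10 and 4.97 with CTBP2 against 6.14 and 6.21 with empty vector in MM.1S-expressing libraries, and 2.57 and 0.98 with CTBP2 against 4.21 and 3.68 with empty vector in NCI-H929-expressing libraries.

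Within single lines the direction was shared and the number of calls was not. In MM.1S-expressing libraries 3 of the 38 were called, PRPS2 (-1.02, SE 0.19) and IMPDH1 (-0.78, SE 0.18) lower and AMPD3 (1.68, SE 0.22) higher, where 5.47% of all genes were called (1.8% lower and 3.67% higher). Their limma adjusted p were 0.0258, 0.0472 and 0.0083. In NCI-H929-expressing libraries 31 were called, 28 lower and 3 higher (AMPD3, RRM2B and NT5E), where 32.9% of all genes were called (14.6% lower and 18.3% higher). The median log2 fold change was -0.62 in MM.1S-expressing libraries, with 34 of 38 below 0, and -1.03 in NCI-H929-expressing libraries, with 33 of 38 below 0. Calls by line moved with single libraries. Calls over all genes moved too: in both lines together, 2458 to 4441 of 12583 genes were called over fits that left out 1 library. Shares of all genes by line are not given for these fits, so the counts below cannot be set against them. The MM.1S-expressing count was 0 without MM.1S CTBP2 replicate 1 or either MM.1S empty vector library, 1 without either NCI-H929 empty vector library, and 13 without the displaced library of MM.1S label or without NCI-H929 CTBP2 replicate 1. At an unadjusted limma p under 0.05 the 3 counts of 0 became 9, 20 and 13, for MM.1S CTBP2 replicate 1 and MM.1S empty vector replicates 1 and 2 left out. The NCI-H929-expressing count was 9 without NCI-H929 empty vector replicate 1, 16 without the displaced library of MM.1S label, and 25 to 34 otherwise. Without both displaced libraries, where each line has 1 CTBP2 library whose spread is assumed to be that of the others, 19 were called in each line. In MM.1S 18 fell and 1 rose, where 11.4% of all genes were called (5.56% lower and 5.8% higher), and in NCI-H929 17 fell and 2 rose, where 15.3% were called (6.52% lower and 8.81% higher). With line labels as given, limma called none of the 38 in MM.1S or NCI-H929, where 0.0238% and 0.0556% of all genes were called. At an unadjusted limma p under 0.05 the counts were 27 and 17, in the same order. The share of all genes is not given for the unadjusted counts in this paragraph. They cannot be set against the shares above, which are at adjusted p.

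The difference of the CTBP2 effect between lines was tested directly, and 1 of the 38 passed, SLC29A1, where 1.26% of all genes passed (0.334% lower in NCI-H929-expressing libraries). Its effect was -2.11 (SE 0.23) in NCI-H929-expressing and -0.36 (SE 0.23) in MM.1S-expressing libraries, a difference of -1.75 (SE 0.32, limma adjusted p = 0.0481). This call held in 2 of 18 alternatives, with a difference of -1.29 (limma adjusted p = 0.14) without both displaced libraries and limma adjusted p of 0.0163 to 0.192 over the 8 fits that left out 1 library; it was lost in 7 of those 8, all but the one without NCI-H929 CTBP2 replicate 1. ADK came next, with a difference of -0.80 (SE 0.21, limma adjusted p = 0.118). For the unadjusted counts that follow, the share of all genes is not given, and the shares beside them are at adjusted p. Without both displaced libraries limma called 0 of the 38 (6 at an unadjusted p under 0.05), where 0.35% of all genes passed, and with line labels as given 0 (5 at an unadjusted p under 0.05), where 0.0159% passed. The median of the 38 differences was -0.31, with 29 below 0, but 0.12 with 14 below 0 without both displaced libraries, so the sign of the median difference turned with those libraries.

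**Figure D3:**
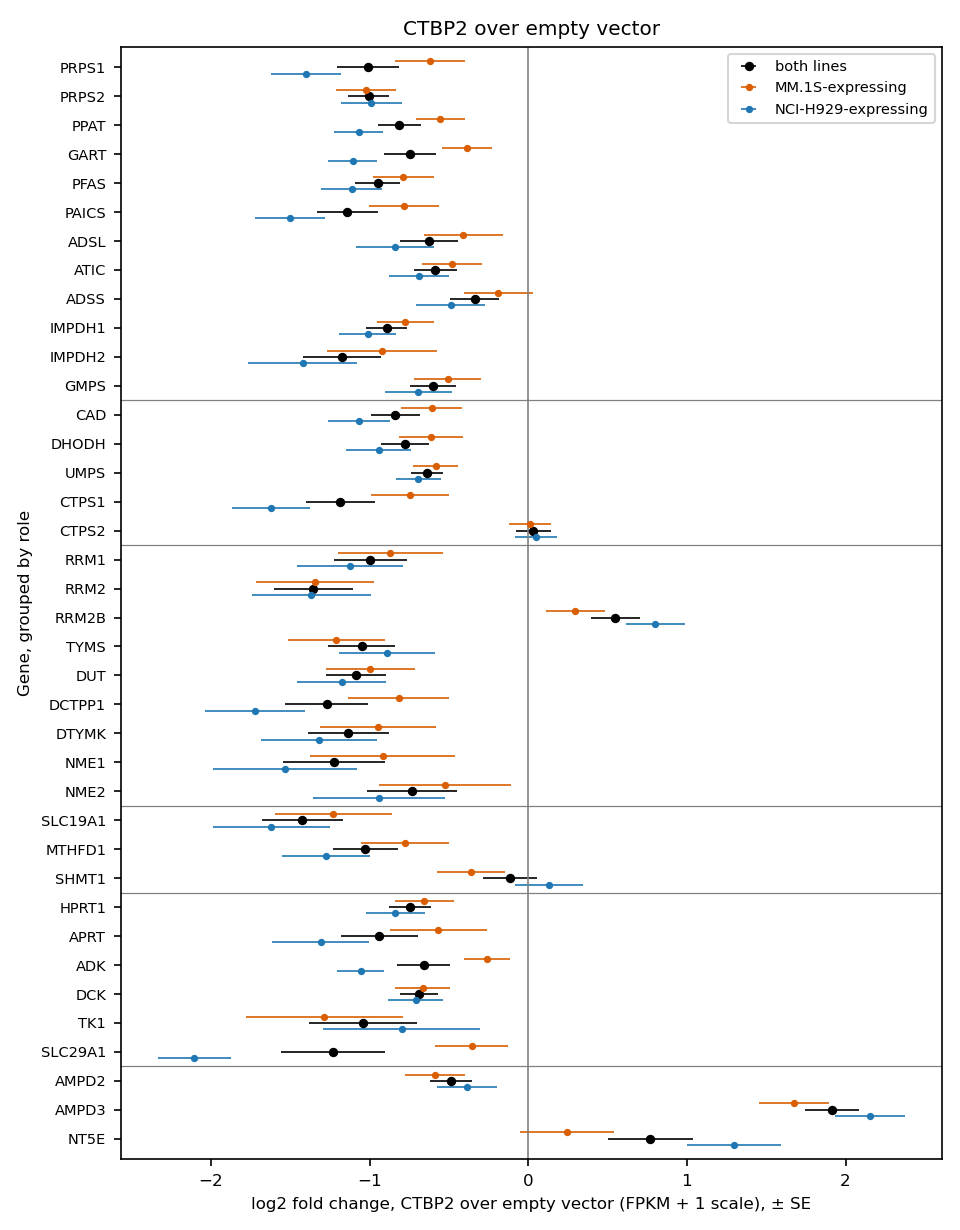
Log2 fold change of CTBP2 over empty vector (horizontal axis, on the FPKM + 1 scale) of each tested gene, grouped by role, for both lines together (black) and for MM.1S-expressing (orange) and NCI-H929-expressing (blue) libraries, with bars of 1 standard error. Most genes lie left of 0 in all 3 estimates, AMPD3 lies at 1.91 over both lines, and SLC29A1 shows the widest gap between lines, -2.11 in NCI-H929-expressing and -0.36 in MM.1S-expressing libraries.

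With empty vector alone the lines differed in some of these genes. Of the 38, 14 differed, 7 higher and 7 lower in NCI-H929, or 36.8%, against 50.8% of all genes tested (22.1% higher and 28.7% lower). Without both displaced libraries, which changes only the estimated spread, 20 differed, where 54.5% of all genes did, and over fits that left out 1 library 10 to 18 differed. With line labels as given limma called 0 (10 at an unadjusted p under 0.05), where 0.0397% of all genes were called at adjusted p. The share of all genes is not given for the unadjusted count, nor for the fits that left out 1 library. Higher in NCI-H929 were AMPD2, IMPDH2, ADK, RRM2B, APRT, PRPS1 and CAD. IMPDH2 was at 460.8 and 319.8 FPKM in NCI-H929 and 121.7 and 133.9 FPKM in MM.1S (1.58, SE 0.35, limma adjusted p = 0.00572), and AMPD2 was at 36.1 and 36.7 FPKM in NCI-H929 and 10.9 and 11.3 FPKM in MM.1S (1.62, SE 0.19, limma adjusted p = 0.000227). Lower in NCI-H929 were CTPS2, TYMS, AMPD3, GMPS, DCK, GART and SLC29A1. CTPS2 had 0 and 0.0145 FPKM in NCI-H929 and 1.99 and 1.61 FPKM in MM.1S (-1.47, SE 0.13, limma adjusted p = 5.59e-05), and GMPS had 29.5 and 21.1 FPKM in NCI-H929 and 53.3 and 55.6 FPKM in MM.1S (-1.10, SE 0.21, limma adjusted p = 0.00315). CTPS2 reached 1 FPKM only in the 4 MM.1S-expressing libraries and passed the filter through them alone. Its p-value therefore gives no separate support for a difference between lines. Averaged over all 8 libraries, NME2 (560.4 FPKM), NME1 (233.5 FPKM), IMPDH2 (184.6 FPKM) and APRT (172.0 FPKM) stood highest and SLC29A2, CTPS2, NT5E (2.34 FPKM) and RRM2B (4.81 FPKM) lowest of the 39. The ranges of NME2, NME1, IMPDH2 and APRT over the libraries overlap.

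**Figure D4:**
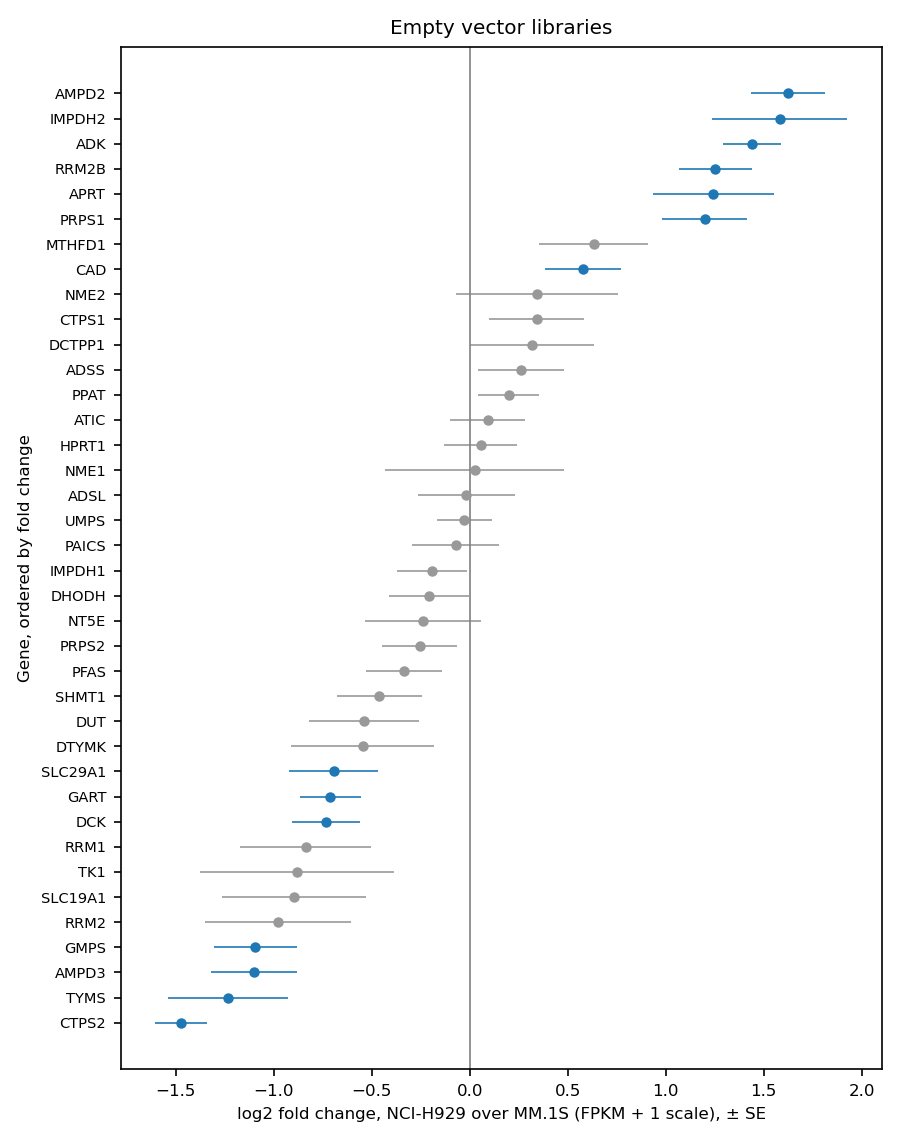
Log2 fold change of NCI-H929 over MM.1S (horizontal axis, on the FPKM + 1 scale) in the empty vector libraries, 2 per line, for the 38 tested genes in order of fold change, with bars of 1 standard error. The 14 genes that passed the limma test are blue and the others grey, with AMPD2 and IMPDH2 at the top and CTPS2 at the bottom.

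A wider list of 68 other genes of the same pathways held 66 that were in the table and 54 that were tested. Of the 54, 16 fell and 4 rose with CTBP2 in both lines together, with a median log2 fold change of -0.21, where 16.7% of all genes fell and 17.4% rose. Mitochondrial folate enzymes were among the falls. SHMT2 (Entrez 6472), which takes one-carbon units from serine in mitochondria, was at 36.6 and 69.4 FPKM with CTBP2 against 97.3 and 135.3 FPKM with empty vector in MM.1S-expressing libraries, and at 40.4 and 23.2 FPKM with CTBP2 against 117.4 and 76.9 FPKM with empty vector in NCI-H929-expressing libraries (-1.39, SE 0.26, limma adjusted p = 0.00692). All 4 CTBP2 values of SHMT2 lay below the empty vector values. MTHFD1L (Entrez 25902) and MTHFD2 (Entrez 10797), its partners on the way to formate, fell by 1.18 (SE 0.19, limma adjusted p = 0.00453) and 0.77 (SE 0.16, limma adjusted p = 0.00835). The third AMP deaminase, AMPD1 (Entrez 270), known from muscle, was at 3.94 and 4.54 FPKM with CTBP2 against 10.4 and 8.57 FPKM with empty vector in MM.1S-expressing libraries, and at 76.3 and 56.1 FPKM with CTBP2 against 215.8 and 245.9 FPKM with empty vector in NCI-H929-expressing libraries (-1.40, SE 0.19, limma adjusted p = 0.00277). AMPD1 and AMPD3 thus moved in opposite directions in both lines. Among those that rose were TK2 (Entrez 7084; 0.95, SE 0.17, limma adjusted p = 0.00623), the mitochondrial thymidine kinase, PRPSAP2 (Entrez 5636; 0.32, SE 0.10, limma adjusted p = 0.0367), a partner of ribose phosphate synthetase, and SAMHD1 (Entrez 25939; 0.42, SE 0.14, limma adjusted p = 0.0427), which degrades deoxynucleotides. On 6 libraries, without the displaced pair, 11 fell and 2 rose, where 13% of all genes fell and 11.5% rose, and PRPSAP2 and SAMHD1 did not pass (limma adjusted p = 0.0582 and 0.0774). With line labels as given 1 fell and 2 rose, where 1.81% of all genes fell and 1.53% rose. Also among the genes that fell were GGH, SLC25A32, ALDH1L2, UCK2, AK6, PNP, NT5C, ITPA and NME4.

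Genes of the G1 to S transition fell beside the nucleotide genes. Of 24 such genes, all tested, 23 fell and POLE did not pass (limma adjusted p = 0.0852), with a median log2 fold change of -1.05, where 16.7% of all genes fell. Leaving out both displaced libraries, 22 fell, where 13% of all genes did, and with line labels as given 2 fell, where 1.81% did. Their summed level was 331 to 839 FPKM in CTBP2 libraries and 899 to 1476 FPKM in empty vector libraries. These groups did not overlap, but nor did the totals of all FPKM given above, and the sum was not rescaled to those totals. PCNA (Entrez 5111), the DNA polymerase clamp and 1 of the 24, was at 68.7 and 117.9 FPKM with CTBP2 against 187.4 and 207.9 FPKM with empty vector in MM.1S-expressing libraries, and at 72.0 and 38.6 FPKM with CTBP2 against 102.8 and 83.4 FPKM with empty vector in NCI-H929-expressing libraries (-0.96, SE 0.23, limma adjusted p = 0.0142). MKI67 (Entrez 4288), a marker of cycling cells, was at 25.6 and 33.6 FPKM with CTBP2 against 72.9 and 56.3 FPKM with empty vector, and at 20.1 and 8.88 FPKM with CTBP2 against 29.7 and 26.1 FPKM with empty vector, in the same order of lines (-1.05, SE 0.22, limma adjusted p = 0.00953). Both were lower with CTBP2 within each line, and the part of these genes in the fall of nucleotide genes was not tested.

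MYC (Entrez 4609), a transcription factor that the E-box above belongs to, was at 133.9 and 138.7 FPKM with CTBP2 against 189.9 and 188.0 FPKM with empty vector in MM.1S-expressing libraries, and at 27.8 and 26.8 FPKM with CTBP2 against 114.6 and 92.9 FPKM with empty vector in NCI-H929-expressing libraries. It was lower with CTBP2 in each line (-1.17, SE 0.26, limma adjusted p = 0.0106), and its part in the result was not tested. Of 4 T cell markers, CD3E (Entrez 916) was at 2.44 to 53.1 FPKM in CTBP2 libraries and 0.527 to 3.65 FPKM in empty vector libraries, and the summed list was at 2.62 to 54.4 and 0.544 to 3.70 FPKM in the same groups. CD3D, CD3G and CD2 did not exceed 0.955 FPKM in any library. The 3 monocyte markers summed to 0.624 to 0.860 FPKM in CTBP2 libraries and 0.391 to 0.593 FPKM in empty vector libraries. The 4 epithelial markers summed to 2.28 to 27.2 FPKM in CTBP2 libraries and 0.928 to 18.4 FPKM in empty vector libraries, with KRT18 high in the NCI-H929-expressing libraries of both vectors.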

How the data were processed

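Libraries of 8 samples were made with a TruSeq RNA kit, according to the labels' protocols. Tools listed by the submitters' processing notes, without settings, are STAR 2.6.0b-1 and HTSeq 0.9.1, read checks and trimming with FastQC 0.11.7 and Trimmomatic 0.36.5, and DESeq2 2.11.40.2, with the build GRCh37 (hg19). The authors deposited a table of FPKM values, which divide by transcript length and library total; the tool that made them is not given in the sources used here, and no per-read counts were used. Depth came from the spacing of low values; 55.5 to 65.8% of these came out whole within 0.1 fragment, against 20.0% by chance, so they were not used as counts. Depths of 16000000 to 21250000 fragments set the precision only of low genes.

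Genes with 1 FPKM or more in 2 libraries were analysed as log2(FPKM + 1) by limma 3.58.1 in R 4.3.3, moderated along a mean-variance trend (lmFit and eBayes), and Benjamini-Hochberg adjustment ran over all 12583 genes with a threshold of 0.05. Both lines together used line and vector as terms (5 residual degrees of freedom); other comparisons used 4 group means (4 residual degrees of freedom). Line was read from CCND2 and FGFR3 and vector from the labels. The gene set, its grouping, the wider lists and the alternatives were chosen with earlier results of these data known. Named with library values are the members of the 6 related pairs and, per role, up to 4 called genes of smallest p; of the wider list, up to 4 each way. Some genes of the wider list are counted but not reported here by name. NT5E, PPAT and ALDH1L1 were given library values, and POLE, CD3E and KRT18 were named, after their values were seen. Alternatives were another pseudocount (0.1), no filter or 5 FPKM, 3 rescalings, no trend, a replicate block, each library left out, both displaced libraries left out, and line labels as given. On simulated data of 12583 genes, with both lines together, 80% of genes changed by 1 on the log2 scale were recovered. Of genes changed by 2, 98% were recovered, and there were 11 false calls. Few genes were changed, all above a set level and equally in both lines, with independent normal noise. These shares therefore do not cover the low genes of the list, nor data where as many genes change as here.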

Additional observations from a re-analysis of the deposited data

Results flagged for a closer look

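For 3 of the genes examined the CTBP2 effect passed a direct test between the lines read from expression (limma, interaction contrast, 8 libraries). These were 1 of the 38 (2.63%), 1 of the 54 tested genes of the wider list (1.85%) and MYC. Of the 24 G1 to S genes 0 passed, and of all genes tested 1.26%. Counts this small do not set the lists apart from all genes. SLC29A1, a nucleoside transporter, had a difference of -1.75 on the log2 scale, NCI-H929-expressing minus MM.1S-expressing (limma adjusted p = 0.0481), and passed in 2 of 18 alternatives, with limma adjusted p of 0.0163 to 0.192 when 1 library was left out. MYC had a difference of -1.41 (limma adjusted p = 0.0362) and passed in 7 of 18, with 0.0324 to 0.15 when 1 library was left out. ALDH1L1 (Entrez 10840), a folate dehydrogenase of the wider list, had a difference of 1.41 (limma adjusted p = 0.038) and passed in 5 of 18, with 0.0345 to 0.168 when 1 library was left out. ALDH1L1 was at 8.54 and 6.61 FPKM with CTBP2 against 2.48 and 1.75 FPKM with empty vector in NCI-H929-expressing libraries, and at 0.0666 FPKM or less in every MM.1S-expressing library. It thus passed the filter on low values through the NCI-H929-expressing libraries alone. With 1 FPKM added, levels this low leave almost no measurable effect in MM.1S-expressing libraries. The difference of ALDH1L1 mainly restates its rise in NCI-H929-expressing libraries, and its p-value gives no separate support for a difference between lines. Without both displaced libraries none of the 3 passed (limma adjusted p = 0.14, 0.143 and 0.0841).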

How the results depend on the processing

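With line labels as given, 8 of the 38 genes fell, 1 rose, and 0 were called in MM.1S, in NCI-H929, in the difference between lines or at baseline (limma; 27, 17, 5 and 10 at an unadjusted p under 0.05). The differences between lines then turned sign, to 1.15 for SLC29A1, -1.43 for ALDH1L1 and 0.92 for MYC. In that fit only the displaced CTBP2 libraries change group, so the gap between the lines enters each difference. Why their line genes go against their labels was not tested. For unadjusted counts in this section, and by line for fits that left out 1 library, the share of all genes is not given. Without both displaced libraries 19 were called in MM.1S and 19 in NCI-H929, and 0 in the difference between lines (6 at an unadjusted p under 0.05). With no filter 1 rose and 1 was called in MM.1S, and with quantile normalization 1 rose. The difference between lines gave 0 calls with a pseudocount of 0.1, no filter, 5 FPKM, median-of-ratios rescaling, quantile normalization, no trend or the replicate block (limma; 4 to 8 at an unadjusted p under 0.05). With 1 library left out, 25 to 31 fell and 1 to 3 rose, and 0 to 13 were called in MM.1S, 9 to 34 in NCI-H929, 0 to 2 in the difference and 10 to 18 at baseline. CTPS2 (log2 fold change) was -0.072 with quantile normalization and -0.0030 to 0.075 with 1 library left out, SHMT1 was 0.15 with equal totals and -0.24 to 0.054 with 1 library left out, and PRPS1 to PRPS2 was 0.046 with a pseudocount of 0.1 and 0.0021 without both displaced libraries. With line labels as given the G1 to S genes that fell numbered 2 of 24, against 23, and the wider list 1 lower and 2 higher of 54, against 16 and 4; without both displaced libraries the wider list had 2 higher. Deviations of replicate 1 correlated at -0.28 to 0.45 between groups, with 0.44 and 0.45 between vectors within MM.1S and NCI-H929. The labels tie the numbers to no shared batch and each group has 2, so no pairing was assumed. With the replicate block 30 fell and 2 rose, where 1808 and 1909 of all 12583 genes did.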
